A study of Mus musculus with 18 samples.

Results

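The 10 genes described here make and desaturate fatty acids in the cell: *Acly*, *Me1*, *Acaca*, *Fasn*, *Elovl6*, *Scd1*, *Scd2*, *Fads1*, *Fads2* and their regulator *Srebf1*. They were chosen by name as a pathway, not by a rule on measured values, though earlier results of these data were known. They are 10 of the 55487 genes counted. RNA came from whole-thickness ileum of 18 chow-fed mice, with 1 library per mouse, in 3 groups of 6, namely controls and mice heterozygous or homozygous for IEC-*Ppara*. IEC-*Ppara* mice carry CAG-*Ppara*,-*EGFP*, a cassette that expresses *Ppara* only after Cre has inverted it, on 1 or both copies of the *Col1a1* safe harbor locus, together with *Villin-CreERT2*, a tamoxifen-inducible Cre active in the intestinal epithelium. The study describes controls as mice of the CAG-*Ppara*,-*EGFP* strain that lack Cre. All 3 groups, male and female C57BL6/J littermates aged 8 to 13 weeks, received tamoxifen at 100 mg/kg on each of 3 days and were sampled 2 weeks later. *Ppara* itself checked the labels: it ranged from 25.8 to 47.4 CPM (reads on the gene scaled to the total of the library) in controls, from 107 to 196 CPM in heterozygous and from 184 to 279 CPM in homozygous mice, with no overlap between controls and the other groups.

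Fatty acid synthesis begins when citrate leaves the mitochondria and is split into acetyl-CoA, which is carboxylated to malonyl-CoA and joined into palmitate at the cost of NADPH. Elongases then lengthen the chain and desaturases place double bonds in it, either in the middle of saturated chains (the SCD enzymes) or in polyunsaturated chains (the FADS enzymes). SREBP-1, the product of *Srebf1*, is the main transcription factor of these genes, and adipocytes and hepatocytes are the cells best known for them. PPARα is best known for raising the opposite pathway, the oxidation of fatty acids, and the genotype comparisons ask how the genes of synthesis stood when *Ppara* was raised in the epithelium.

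None of the 10 genes passed the test in any of the 3 genotype comparisons. With edgeR's quasi-likelihood test and a Benjamini-Hochberg adjusted p under 0.05, 0 of 10 were called for homozygous against control, where 0.411% of the 12645 protein-coding genes tested were called. For heterozygous against control 0 of 10 were called, against 0.293% of all genes tested, and for homozygous against heterozygous 0 of 10, against 0.00791%. At an unadjusted p under 0.05 edgeR named 1 of the 10 for homozygous against control (*Me1*), 2 for heterozygous against control (*Me1* and *Fads1*) and 1 for homozygous against heterozygous (*Fads1*). Over all genes tested 8.06%, 5.29% and 7.61% were under that limit. DESeq2 also called 0 of the 10 in each comparison, where it called 1.08%, 0.633% and 0.0791% of all genes tested. All 10 passed the filter on low values (more than 3 CPM in at least 4 libraries). The median log2 fold change of the 10 was 0.01 for homozygous and -0.02 for heterozygous against control, and over all genes tested it was -0.0048 and -0.0058.

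For most of these genes the libraries differed along a feature found in all 3 genotypes, their level of adipocyte genes. The adipocyte hormone adiponectin (*Adipoq*) was under 1 CPM in 8 libraries (3 control, 4 heterozygous and 1 homozygous) and between 3.36 and 56.6 CPM in the other 10 (3 control, 2 heterozygous and 5 homozygous). In the 8 libraries *Scd1* ranged from 13.2 to 73.0 CPM, with a median of 37.3, and in the 10 libraries it ranged from 66.4 to 1009.6 CPM, with a median of 478. Whole-thickness ileum can hold fat tissue, and in such bulk RNA fewer cells of a type and less RNA per cell cannot be told apart.

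**Figure D1:**
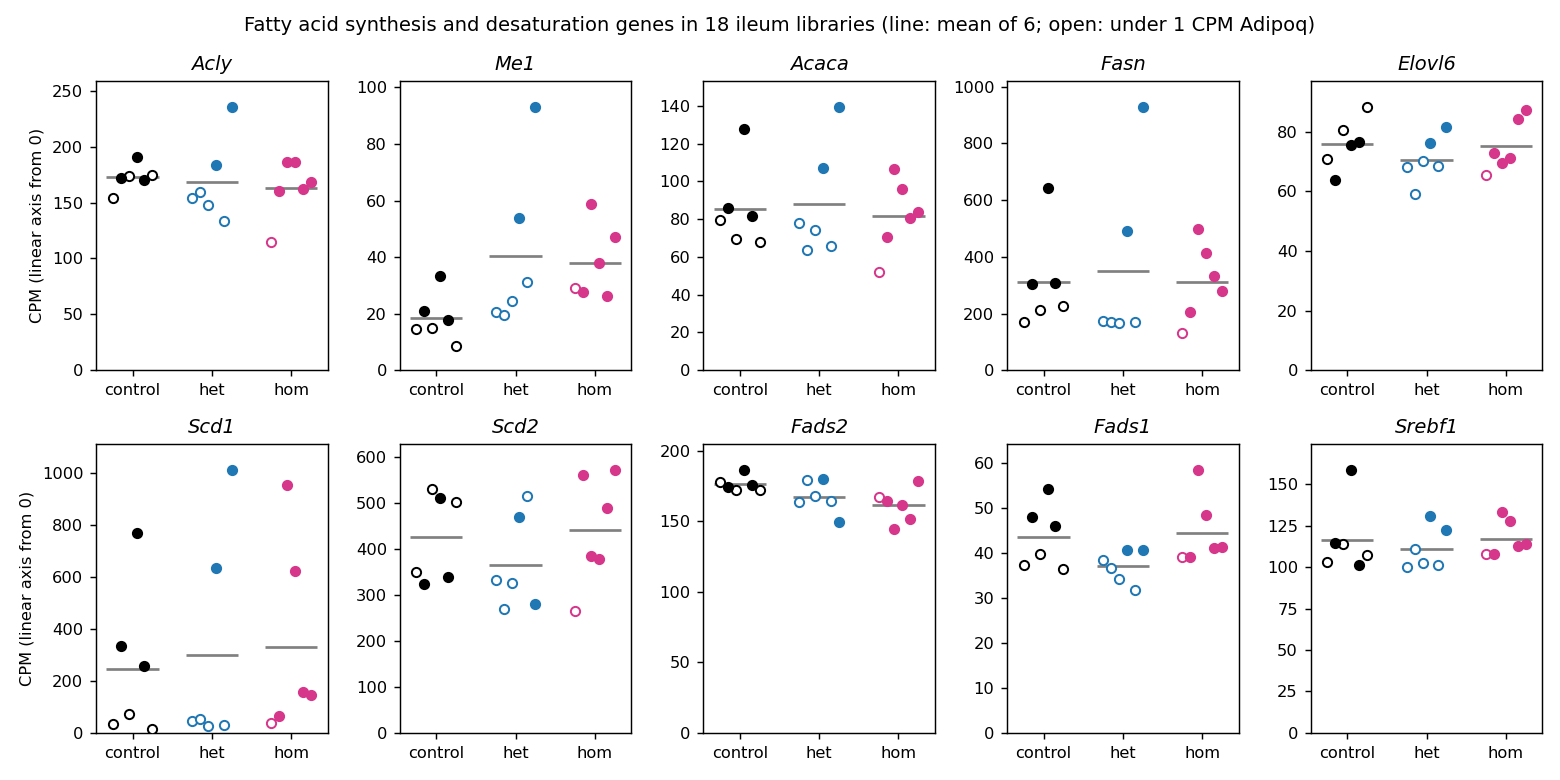
CPM of each of the 10 genes (linear axes from 0) in control, heterozygous (het) and homozygous (hom) libraries. Each point is 1 library, grey lines are means of 6, and open points are the 8 libraries with *Adipoq* under 1 CPM. Filled points hold the top of the *Scd1* and *Fasn* panels in all 3 genotypes, while *Fads2* stays between 144 and 186 CPM.

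The 10 adipocyte markers used as a measure of this feature were *Adipoq*, *Plin1*, *Cidec*, *Cfd*, *Retn*, *Lep*, *Car3*, *Adrb3*, *Fabp4* and *Lpl*. Their summed level ranged from 46.3 to 1379.7 CPM in controls (median 200.2), from 53.2 to 1369 CPM in heterozygous (median 71.7) and from 90.7 to 1235 CPM in homozygous mice (median 341). *Adipoq* had 0 counts in 6 libraries, *Retn* in 7 and *Lep* in 7. *Cidec*, *Fabp4*, *Lpl* and *Adrb3* had counts in all 18 libraries, so the sum did not reach 0 in any library. In the 8 libraries under 1 CPM *Adipoq*, *Cidec* ranged from 25.2 to 52.5 CPM, *Fabp4* from 14.1 to 21.3 CPM and *Lpl* from 3.53 to 15.8 CPM. These genes made up most of the sum there. *Cidec* had log2 fold changes of 0.77 for homozygous and 0.69 for heterozygous against control, not called (adjusted p = 0.616 and 1.00 by edgeR). Smooth muscle markers summed to between 666 and 6197 CPM in controls, 832 and 4556 CPM in heterozygous and 4172 and 9819 CPM in homozygous mice, and enterocyte markers to between 21556 and 32024 CPM in controls, 22316 and 30698 CPM in heterozygous and 21879 and 30412 CPM in homozygous mice. Enteric glia and neuron markers had medians of 44.7 CPM (19.7 to 56.3) for controls, 46.6 CPM (32.4 to 53.6) for heterozygotes and 66.3 CPM (48.5 to 93.6) for homozygotes, and B cell markers from 18.4 to 567 CPM, 15.2 to 321 CPM and 12.6 to 94.6 CPM (medians 22.3, 20.5 and 16.0). Markers of distal intestine had medians of 7909, 7752 and 5949 CPM, and those of proximal intestine 220 CPM (168 to 257) in controls, 351 CPM (266 to 454) in heterozygous and 347 CPM (319.9 to 424) in homozygous mice, a list that holds *Fabp1*, itself called for homozygous against control (log2 fold change 3.88, adjusted p = 9.03e-09 by edgeR). The part of these cell types and regions in the results on the 10 genes was not tested.

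Per gene length, the order of the 10 genes in controls ran from *Scd2* at 77.9 FPKM ± 17.9 (SD, n = 6; FPKM divides the read count by library total and gene length), *Fads2* at 53.6 ± 1.60 and *Scd1* at 50.4 ± 58.4, to *Acly* at 32.7 ± 2.23, *Fasn* at 28.4 ± 15.6 and *Srebf1* at 20.7 ± 3.79. Below them stood *Elovl6* at 11.8 FPKM ± 1.29, *Fads1* at 9.07 ± 1.45, *Acaca* at 5.00 ± 1.29 and *Me1* at 4.77 ± 2.19. The place of *Scd1* in this order is not fixed, since its FPKM ran from 2.69 to 157 among controls, and *Acaca* and *Me1* lay within each other's spread.

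*Acly* encodes ATP citrate lyase, which splits citrate to acetyl-CoA (chr11:100476353-100528000, minus strand; GRCm38, as are all positions of genes here). Its levels ranged from 154 to 191 CPM in controls (median 173), from 133 to 235 CPM in heterozygous (median 157) and from 114 to 187 CPM in homozygous mice (median 166), and the groups overlapped. The log2 fold change was -0.08 (SE 0.12, 95% interval -0.33 to 0.17) for homozygous and -0.01 (SE 0.12, -0.26 to 0.24) for heterozygous against control. Its lowest library, homozygous replicate 1, was the only homozygous library under 1 CPM *Adipoq*. Fits added after seeing the data moved the *Acly* value for homozygous against control. It was -0.17 (SE 0.10), not called, with the mean log2 CPM of the adipocyte markers as a covariate. Within the 8 libraries it was -0.60, from 1 homozygous library, and within the 10 it was 0.0144.

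*Me1* encodes the cytosolic malic enzyme, which turns malate to pyruvate and makes NADPH for synthesis, and it is a known PPARα target in rodent liver (chr9:86581371-86695953, minus strand). It was the member with the largest difference between genotypes. *Me1* ranged from 8.62 to 33.3 CPM in controls (median 16.3), from 19.5 to 93.0 CPM in heterozygous (median 27.8) and from 26.4 to 58.6 CPM in homozygous mice (median 33.4). Only control replicate 4, at 33.3 CPM, and control replicate 2, at 21.1 CPM, reached into the range of the IEC-*Ppara* libraries. By edgeR the log2 fold change was 1.06 (SE 0.37, 95% interval 0.29 to 1.83, adjusted p = 0.407) for homozygous against control, and 1.18 (SE 0.37, 0.41 to 1.95, adjusted p = 0.428) for heterozygous against control, which correspond to 2.08-fold and 2.27-fold. Unadjusted p was 0.00972 and 0.00474 by edgeR, and 0.0108 and 0.0628 by the two-sided exact permutation test of mean CPM, in which 0.00216 is the smallest p possible. Homozygous and heterozygous mice differed by -0.12 (-0.88 to 0.63).

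*Me1* was also compared within the 8 and the 10 libraries. Under 1 CPM *Adipoq*, the 3 controls had 8.62 to 14.9 CPM of *Me1*, the 4 heterozygous libraries 19.5 to 31.2 CPM and the 1 homozygous library 28.9 CPM, with no overlap between controls and the rest. The share of all genes tested without overlap in these few libraries was not counted, so this is a description only. Above 1 CPM *Adipoq*, the 3 controls had 17.7 to 33.3 CPM, the 2 heterozygous libraries 53.7 and 93.0 CPM and the 5 homozygous libraries 26.4 to 58.6 CPM. *Adipoq* itself was not alike in the groups of these 10, at 11.4, 17.5 and 56.6 CPM in the controls, 52.6 and 44.3 CPM in the heterozygous and 3.36 to 47.0 CPM in the homozygous libraries. In fits added after seeing the data, *Me1* for homozygous against heterozygous was -0.91 (SE 0.32, adjusted p = 0.973 by edgeR) within the 10. Within the 8 it was 0.22, from 1 homozygous library. With the mean log2 CPM of the adipocyte markers as a covariate, an alternative chosen after seeing the data, edgeR gave a log2 fold change of 1.18 (SE 0.22, adjusted p = 0.0165) for heterozygous and 0.83 (SE 0.22, adjusted p = 0.159) for homozygous against control, so that *Me1* was called for heterozygous mice only. The homozygous and heterozygous groups were not called apart in that fit (log2 difference -0.35, SE 0.22, adjusted p = 1.00 by edgeR). Across all fits of *Me1* for heterozygous against control the adjusted p ran from 0.0165 to 1.00. Without heterozygous replicate 6, the library with the highest *Me1*, the log2 fold change for heterozygous against control was 0.76, and with sex as a covariate it was 0.97.

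**Figure D2:**
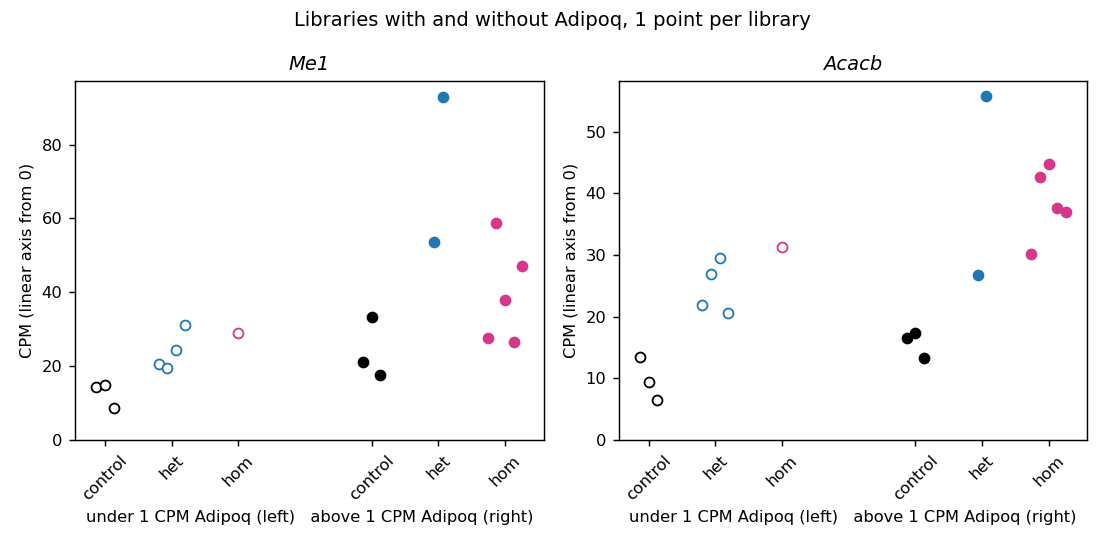
CPM (linear axes from 0) of *Me1* (left) and *Acacb* (right) by genotype, split into the 8 libraries under 1 CPM *Adipoq* (open points) and the 10 above it (filled points). Each point is 1 library. Under 1 CPM *Adipoq* all controls lie below all IEC-*Ppara* libraries for both genes, and above it this holds for *Acacb* while the *Me1* ranges of controls (17.7 to 33.3 CPM) and homozygous mice (26.4 to 58.6 CPM) overlap. The share of all genes tested that separate so was not counted.

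The sequence around a start of *Me1* is shown because PPARα binds DNA with RXR at direct repeats of AGGTCA spaced by 1 base (a DR1 element), and *Me1* is the member that differed most. Windows from 250 bases before to 50 bases after the start of transcription, taken from RefSeq (GRCm38.p6), were matched for 7 of the 10 genes, 10 windows in all, and *Scd1*, *Scd2* and *Fads1* were not matched. The full repeat (AGGTCA, any 1 base, AGGTCA), searched on both strands, was in 0 of the 10 windows and in 0.0396% of 32851 windows of mouse genes. The stretch closest to it in any of the 10 windows matched 9 of its 12 fixed letters and began at position -215 from the upstream *Me1* start. In 24.6% of all windows a stretch matched as well, so this match is common. The capitals mark it in the window chr9:86695865-86696164 (minus strand, 5′ to 3′):
Me1: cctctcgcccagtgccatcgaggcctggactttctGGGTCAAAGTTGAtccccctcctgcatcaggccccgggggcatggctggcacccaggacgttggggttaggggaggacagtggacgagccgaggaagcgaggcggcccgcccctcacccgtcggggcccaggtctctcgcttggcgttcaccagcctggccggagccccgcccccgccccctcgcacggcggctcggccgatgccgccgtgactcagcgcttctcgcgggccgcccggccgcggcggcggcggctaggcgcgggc

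*Acaca* encodes acetyl-CoA carboxylase 1, which makes the malonyl-CoA used for new chains (chr11:84129672-84401651, plus strand). It ranged from 68.1 to 128 CPM in controls (median 80.5), from 63.8 to 139 CPM in heterozygous (median 76.1) and from 51.8 to 107 CPM in homozygous mice (median 82.2), and the groups overlapped throughout. Log2 fold changes were -0.06 (SE 0.19, 95% interval -0.46 to 0.35) for homozygous and 0.08 (SE 0.19, -0.33 to 0.48) for heterozygous against control. With the adipocyte covariate they were -0.24 (SE 0.10, adjusted p = 0.662 by edgeR) for homozygous and 0.10 (SE 0.10) for heterozygous against control. Homozygous against heterozygous was -0.34 (SE 0.10) in that fit, not called, beside -0.14 (SE 0.19) without the covariate. The protein-coding gene *Gm11437*, which reached 29.9 CPM, overlaps *Acaca* on the opposite strand, and the library protocol does not mark strand, so that reads of the pair could be told apart only where their exons do not overlap.

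*Fasn* encodes fatty acid synthase, the enzyme that builds palmitate (chr11:120805846-120824547, minus strand). It ranged from 170.4 to 642 CPM in controls (median 265), from 168 to 927 CPM in heterozygous (median 172) and from 131 to 499 CPM in homozygous mice (median 306). The highest library of each group, control replicate 4, heterozygous replicate 6 and homozygous replicate 3, had 56.6, 44.3 and 47.0 CPM of *Adipoq*. The log2 fold change of *Fasn* was 0.01 (SE 0.44, 95% interval -0.92 to 0.94) for homozygous and 0.21 (SE 0.44, -0.72 to 1.14) for heterozygous against control, and the interval for homozygous mice runs from 0.529-fold to 1.92-fold. With the adipocyte covariate the log2 fold change was -0.42 (SE 0.20, adjusted p = 0.714 by edgeR) for homozygous and 0.10 (SE 0.19) for heterozygous against control. The direction for homozygous mice turned with that covariate, and also with scaling by library size (-0.00367) or sex as a covariate (-0.08).

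The start of *Fasn* is shown because *Fasn*, *Acaca* and *Acly* moved together across the libraries, and CCAAT boxes bound by NF-Y are known partners of SREBP at such genes. CCAAT, searched on both strands, was in 5 of the 10 windows, as in 37.4% of all windows. *Fasn* held 3 matches, first base at -90, -62 and -59 from the start, the last 2 overlapping on opposite strands. The *Acly* window held 1 match, after the start (first base at 38), and the *Acaca* window held no match. The motif was thus not shared by the starts of all 3 genes. GGGCGG, the core letters bound by Sp1, was in 5 of 10 windows and in 35.7% of all windows. The sterol response letters TCACNCCAC were in 0 of 10 windows and in 1.24% of all windows, on either strand. Capitals mark the CCAAT matches in chr11:120824498-120824797 (minus strand, 5′ to 3′):
Fasn: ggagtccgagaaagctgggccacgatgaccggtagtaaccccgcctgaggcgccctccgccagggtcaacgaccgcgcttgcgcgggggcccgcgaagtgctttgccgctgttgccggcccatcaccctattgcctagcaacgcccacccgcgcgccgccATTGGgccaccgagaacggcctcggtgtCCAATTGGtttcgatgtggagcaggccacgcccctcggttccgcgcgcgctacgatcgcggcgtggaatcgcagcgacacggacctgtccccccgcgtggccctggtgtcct

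*Elovl6* encodes the elongase that takes palmitate to stearate (chr3:129532355-129638495, plus strand). It ranged from 64.0 to 88.2 CPM in controls (median 76.0), from 59.2 to 81.7 CPM in heterozygous (median 69.4) and from 65.7 to 87.4 CPM in homozygous mice (median 72.1). These ranges overlapped almost in full. Its log2 fold change was -0.02 (SE 0.10, 95% interval -0.23 to 0.20) for homozygous and -0.08 (SE 0.10, -0.30 to 0.14) for heterozygous against control.

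*Scd1* and *Scd2* encode stearoyl-CoA desaturases, which make monounsaturated oleate and palmitoleate from saturated chains, and lie near each other on chromosome 19 (chr19:44394455-44407879, minus strand, and chr19:44293674-44306864, plus strand). *Scd1* is the form of adipose tissue, liver and sebaceous glands, and *Scd2* the form best known from brain. *Scd1* ranged from 13.2 to 767 CPM in controls (median 166), from 26.8 to 1009.6 CPM in heterozygous (median 49.5) and from 39.1 to 953 CPM in homozygous mice (median 151), a 76.8-fold span over the 18 libraries and the widest of the 10 genes. The log2 fold change was 0.45 (SE 1.04, 95% interval -1.74 to 2.64) for homozygous and 0.34 (SE 1.04, -1.85 to 2.53) for heterozygous against control, so these libraries cannot place the effect of genotype on *Scd1* within several-fold. With the adipocyte covariate the standard error was 0.33 and 0.32 in the same comparisons, and the log2 fold changes were -0.36 and 0.20.

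*Scd2* spanned 2.16-fold over the 18 libraries. It ranged from 323 to 530 CPM in controls (median 426), from 269.6 to 516 CPM in heterozygous (median 329) and from 265 to 572 CPM in homozygous mice (median 437). Fitted log2 fold changes were 0.05 (SE 0.22, 95% interval -0.41 to 0.52) for homozygous and -0.19 (SE 0.22, -0.65 to 0.28) for heterozygous against control. Only 125 of 4888 stretches of 100 bases in *Scd1* transcripts were shared with its relatives *Scd2*, *Scd3* and *Scd4*, and 48 of 5461 in *Scd2*, so little of either transcript is shared.

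*Fads2* and *Fads1* encode the delta-6 and delta-5 desaturases, which act in turn in making long polyunsaturated fatty acids (chr19:10062765-10101746, minus strand, and chr19:10182888-10196877, plus strand). *Fads2* ranged from 172 to 186 CPM in controls (median 175), from 149 to 180.2 CPM in heterozygous (median 166) and from 144 to 179 CPM in homozygous mice (median 163). It had the narrowest span of the 10 genes, 1.29-fold over 18 libraries. Its log2 fold change was -0.12 (SE 0.06, 95% interval -0.26 to 0.01) for homozygous and -0.05 (SE 0.06, -0.18 to 0.08) for heterozygous against control, with an edgeR unadjusted p of 0.0606 and adjusted p of 0.635 for the former. The exact permutation test of mean CPM, two-sided, gave an unadjusted p = 0.0152 for homozygous against control, where each of the 10 genes was tested so in 3 comparisons, and *Fads2* was not called.

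*Fads1* ranged from 36.5 to 54.3 CPM in controls (median 42.9), from 31.8 to 40.7 CPM in heterozygous (median 37.6) and from 39.0 to 58.4 CPM in homozygous mice (median 41.1). The lowest libraries were heterozygous replicates 5 and 3, and the groups overlapped. The log2 fold change was 0.03 (SE 0.09, 95% interval -0.16 to 0.23) for homozygous and -0.20 (SE 0.09, -0.40 to -0.0049) for heterozygous against control. Between the IEC-*Ppara* groups it was 0.23 (SE 0.09, 0.04 to 0.43; edgeR unadjusted p = 0.0213, adjusted p = 0.642), and the exact permutation test of mean CPM, two-sided, gave an unadjusted p = 0.0303, and 0.0736 for heterozygous against control. Heterozygous mice also had 4 of their 6 libraries under 1 CPM *Adipoq* and homozygous mice 1 of 6. With the adipocyte covariate the log2 difference between them was 0.13 (SE 0.06, edgeR unadjusted p = 0.0538). For heterozygous against control it was -0.17 (SE 0.06) with that covariate, not called (unadjusted p = 0.0129 and adjusted p = 0.650 by edgeR). The part of adipocyte content in these differences of *Fads1* was not tested.

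*Srebf1* encodes SREBP-1 (chr11:60199089-60222581, minus strand), and its counts do not separate SREBP-1a from SREBP-1c, which share most exons. It ranged from 101.1 to 159 CPM in controls (median 111), from 100.0 to 131 CPM in heterozygous (median 107) and from 108 to 133 CPM in homozygous mice (median 113). The log2 fold change was 0.02 (SE 0.09, 95% interval -0.17 to 0.20) for homozygous and -0.03 (SE 0.09, -0.22 to 0.15) for heterozygous against control. *Rai1*, on the opposite strand, overlaps *Srebf1* and reached 55.8 CPM, and reads from overlapping exons of the pair could not be told apart.

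**Figure D3:**
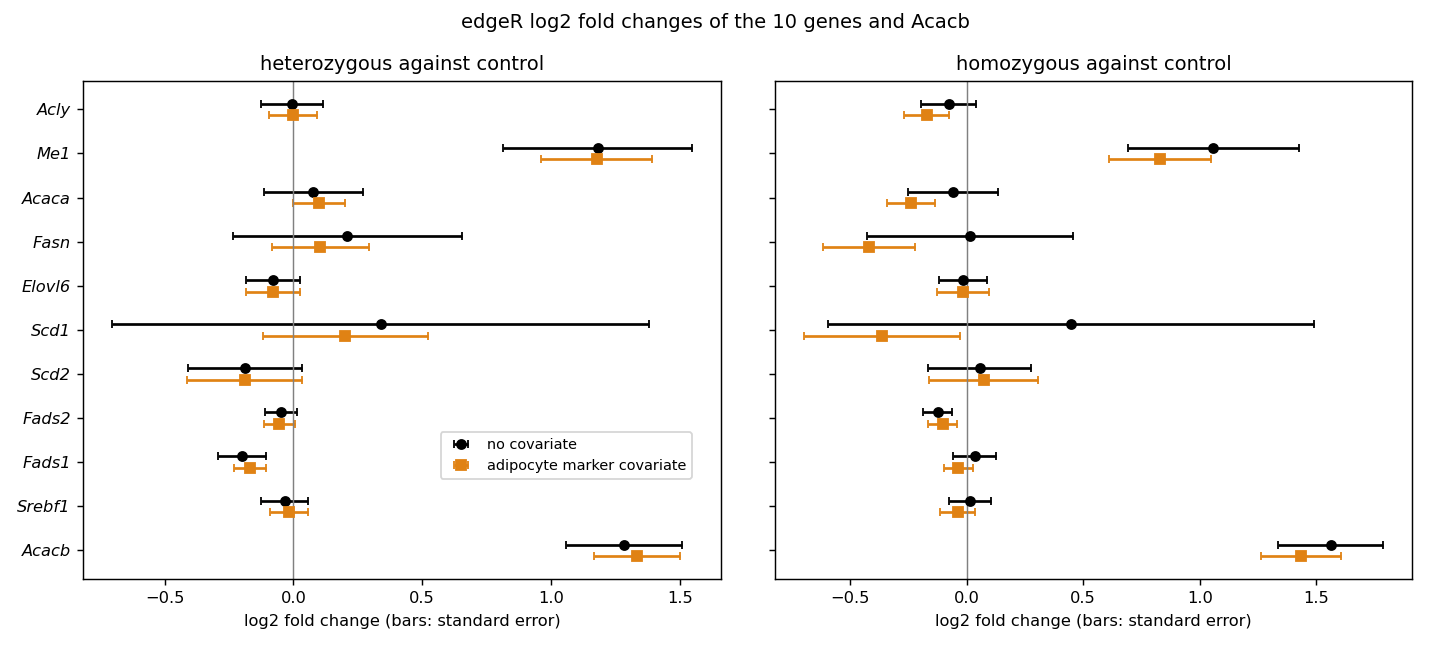
edgeR log2 fold change of the 10 genes and *Acacb* for heterozygous (left) and homozygous (right) mice against control. Points are estimates and bars are standard errors; circles have no covariate and squares have the adipocyte marker level as covariate. *Me1* (1.18 and 1.06) and *Acacb* (1.28 and 1.56) stand to the right, the other 9 genes lie between -0.20 and 0.45 without the covariate, and the bar of *Scd1* shortens from 1.04 to 0.33 with the covariate.

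Several of the genes were higher where adipocyte markers were higher. Over the 18 libraries, log2 CPM of *Scd1* and the mean log2 CPM of the markers had Pearson's r of 0.948 (Spearman's rho 0.942, permutation p = 1e-05 for each, the smallest that the permutations can give), and leaving out the 2 libraries farthest from the median gave 0.939. For *Fasn* r was 0.882 (rho 0.886, permutation p = 1e-05 for each; 0.869 without the 2 libraries), and for *Acaca* 0.811 (rho 0.868, permutation p = 4e-05 and 3e-05; 0.814 without them). *Fads1*, *Srebf1*, *Acly* and *Me1* had r of 0.791, 0.720, 0.685 and 0.675, with rho of 0.878, 0.738, 0.742 and 0.631, permutation p from 2e-05 to 0.00619 and r of 0.737, 0.675, 0.62 and 0.756 without the 2 libraries. *Elovl6*, *Scd2* and *Fads2* had r of 0.253, 0.132 and -0.22, with rho of 0.22, 0.0402 and -0.00929, and permutation p from 0.306 to 0.974. The 2 libraries left out were heterozygous replicates 3 and 5, and these 10 relations are given with unadjusted p.

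Since the libraries fell into 8 with almost no *Adipoq* and 10 with it, r was also taken within each. Within the 10 libraries r was 0.962 for *Scd1*, 0.876 for *Acaca*, 0.872 for *Fasn*, 0.764 for *Srebf1* and 0.724 for *Acly*. Within the 8 libraries it was 0.467 for *Scd1*, -0.03 for *Acaca*, -0.13 for *Fasn*, -0.02 for *Srebf1* and -0.10 for *Acly*, over a narrower range of summed marker level (46.3 to 90.7 CPM, against 150.5 to 1379.7 CPM in the 10). *Fads1* had 0.526 and 0.681, and *Me1* had 0.558 and 0.0715, in the 10 and the 8. In controls, heterozygous and homozygous mice taken alone r was 0.951, 0.977 and 0.932 for *Scd1*, 0.882, 0.938 and 0.987 for *Fasn*, and 0.802, 0.932 and 0.994 for *Acaca*. It was 0.58, 0.889 and 0.837 for *Srebf1* and 0.599, 0.862 and 0.972 for *Acly*. The relation of these genes was thus seen within each genotype, but each genotype holds libraries of both the 8 and the 10.

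**Figure D4:**
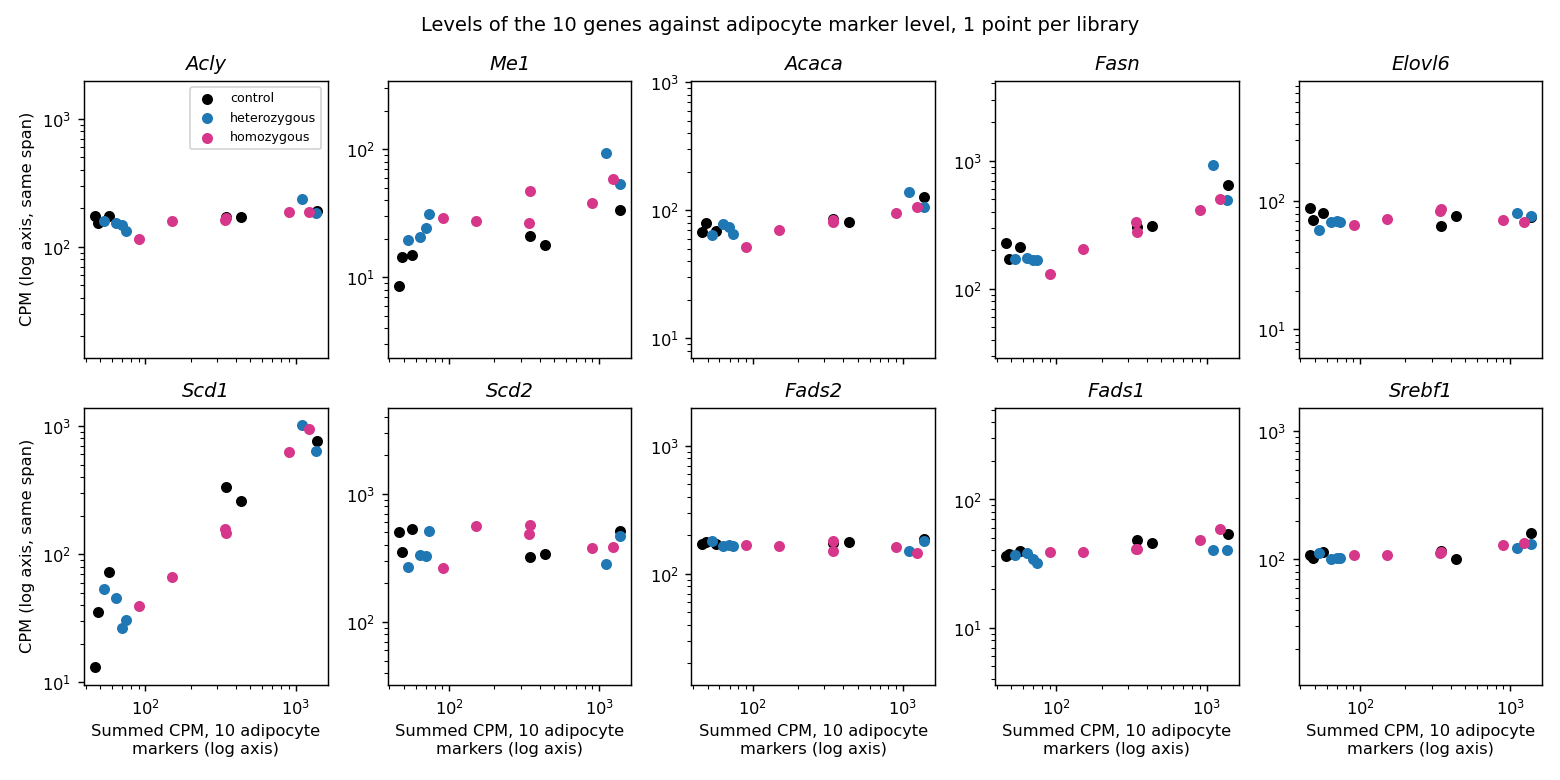
CPM of each gene against the summed CPM of 10 adipocyte markers in the same library (both axes log, with the same span of levels in every panel). Points are libraries, colored by genotype. *Scd1* is higher where the markers are higher (r = 0.948 on log2 values), and the points of *Scd2* (0.132) and *Fads2* (-0.22) form no such slope.

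Between the 8 and the 10 libraries, the ratio of medians was 12.8 for *Scd1*, 2.20 for *Fasn*, 1.78 for *Me1* and 1.32 for *Acaca*. It was 1.25 for *Scd2*, 1.18 for *Fads1*, 1.16 for *Acly*, 1.13 for *Srebf1*, 1.09 for *Elovl6* and 0.997 for *Fads2*. *Fasn* in the 8 libraries ranged from 131 to 227 CPM, and in the 10 from 206 to 927 CPM. The split by *Adipoq* was chosen after the values were seen, and these numbers are descriptions.

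The lists of other genes of the pathway held 49, and 45 passed the filter (*Elovl2*, *Elovl3*, *Elovl4* and *Scd4* did not). For both homozygous and heterozygous against control 1 of the 45 was called, *Acacb*, and for homozygous against heterozygous 0, where 0.411%, 0.293% and 0.00791% of all genes tested were called, so that 0 called in a list of this size is near the background. In the list of other elongation and desaturation enzymes 0 of 14 were called, with median log2 fold changes of 0.07 and -0.01 for homozygous and heterozygous against control, and *Elovl5*, an elongase of polyunsaturated chains, had -0.20 (SE 0.09, adjusted p = 0.601 by edgeR) in homozygous mice, *Fads3* 0.18 (SE 0.26) and *Hacd4* 0.14 (SE 0.29). In the list of SREBP and LXR control 0 of 16 were called. For homozygous against control *Abca1*, the cholesterol exporter that LXR raises, had 0.39 (SE 0.23, adjusted p = 0.703 by edgeR), *Mlxipl*, the carbohydrate response factor ChREBP, -0.29 (SE 0.11, adjusted p = 0.451) and *Insig1*, which holds SREBP back in the endoplasmic reticulum, 0.19 (SE 0.20). Cholesterol synthesis, the other SREBP pathway, had 0 of 21 called, with medians of -0.02 and 0.03, and *Fdps*, *Hsd17b7* and *Idi1* had 0.21 (SE 0.26), 0.19 (SE 0.20) and -0.14 (SE 0.20) for homozygous against control.

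*Acacb* encodes acetyl-CoA carboxylase 2, whose malonyl-CoA at the mitochondrial membrane holds back carnitine palmitoyltransferase 1 and so fatty acid entry for oxidation. It ranged from 6.53 to 17.4 CPM in controls (median 13.4), from 20.6 to 55.8 CPM in heterozygous (median 26.8) and from 30.1 to 44.7 CPM in homozygous mice (median 37.4), and no IEC-*Ppara* library was as low as any control. How many of all genes tested separate in this way was not counted. By edgeR *Acacb* rose by a log2 fold change of 1.56 (SE 0.23, adjusted p = 0.00104) in homozygous and 1.28 (SE 0.23, adjusted p = 0.0112) in heterozygous mice. Homozygous and heterozygous mice were not called apart (log2 difference 0.28, SE 0.22, adjusted p = 0.726 by edgeR). The call for heterozygous mice did not hold with only the 12 libraries of the comparison (1.28, adjusted p = 0.111 by edgeR) or with the replicate number as a block (1.24, adjusted p = 0.106 by edgeR). Within the 8 and the 10 libraries, an alternative added after seeing the data, it was 1.33 and 1.45, not called (adjusted p = 0.413 and 0.0867 by edgeR), and for homozygous mice 1.64, from 1 homozygous library and not called, and 1.34, called (adjusted p = 0.367 and 0.0385 by edgeR). With the adipocyte covariate the log2 fold changes were 1.43 and 1.33 for homozygous and heterozygous mice, adjusted p = 0.000136 and 0.000397 by edgeR. No transcript stretch of 100 bases was shared between *Acaca* and *Acacb*.

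Genes of the opposite pathway were called in both IEC-*Ppara* groups. Among 27 genes of β-oxidation, 5 were called for homozygous against control (*Slc25a20*, *Acaa1b*, *Acadvl*, *Decr2* and *Hsd17b4*), beside 0.411% of all genes tested, and 5 for heterozygous against control (*Slc25a20*, *Acaa1b*, *Acadvl*, *Hsd17b4* and *Etfdh*), beside 0.293%, all higher. The median log2 fold change of the 27 was 0.31 and 0.32, beside 0.01 and -0.02 for the 10 genes of synthesis. *Slc25a20*, the carnitine carrier of the mitochondria, rose from 81.5 CPM ± 8.8 in controls to 123 ± 13.5 in heterozygous and 139.8 ± 12.6 in homozygous mice (SD, n = 6). Lists of this pathway had been examined in these data before, so their counts are no independent support.

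Levels of *Srebf1* rose and fell with those of *Fasn*, *Scd1*, *Fads1*, *Acaca*, *Acly* and *Me1* across the 18 libraries, and little with those of *Scd2*, *Elovl6* and *Fads2*. Pearson's r of log2 CPM with *Srebf1* was 0.781 for *Fasn* (rho 0.746, permutation p = 0.00021 and 0.00062), 0.777 for *Scd1* (rho 0.8, permutation p = 6e-05 and 0.00011), 0.738 for *Fads1* (rho 0.723, permutation p = 0.00074 and 0.00116) and 0.735 for *Acaca* (rho 0.684, permutation p = 0.00054 and 0.00257). It was 0.603 for *Acly* (rho 0.779, permutation p = 0.0104 and 0.00025), 0.530 for *Me1* (rho 0.641, permutation p = 0.0243 and 0.00482), 0.210 for *Scd2*, 0.132 for *Elovl6* and 0.0148 for *Fads2*, and the p of these 9 relations is unadjusted. Without control replicate 4 and homozygous replicate 3, the farthest from the median of *Srebf1*, r was 0.739 for *Fasn*, 0.765 for *Scd1*, 0.525 for *Fads1*, 0.615 for *Acaca*, 0.623 for *Acly* and 0.586 for *Me1*. Within the 10 libraries above 1 CPM *Adipoq* r was 0.678 for *Fasn*, 0.705 for *Scd1*, 0.578 for *Fads1*, 0.759 for *Acaca*, 0.483 for *Acly* and 0.443 for *Me1*. Within the 8 under it r was 0.289, 0.373, 0.528, -0.448, 0.318 and -0.342 in the same order, so the sign turned for *Acaca* and *Me1*. *Srebf1* itself moved with the adipocyte markers, so the 2 relations were not separated.

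The tested genes whose log2 CPM across the 18 libraries was most like each of the 10 were listed by Pearson's r. For *Scd1* they were *Trf* (0.978), *Pnpla3* (0.967) and *Pygl* (0.966), and for *Fasn* *Pcx* (0.957), *Acaca* (0.942) and *Thrsp* (0.935). Among the genes most like *Scd2* were *Lss* (0.918), which encodes an enzyme of cholesterol synthesis, and *Tef* (0.885). *Me1* was most like *Cidec* (0.895), *Glul* (0.855) and *Acsl1* (0.842). *Cidec*, which encodes a lipid droplet protein and was counted in every library, is also among the adipocyte markers used as a covariate. *Srebf1* was most like *Igf1* (0.911), *Scarb1* (0.887) and *Rbp4* (0.865), *Acly* like *Fasn* (0.877), *Acaca* (0.857) and *Snx11* (0.843), and *Acaca* like *Fasn* (0.942), *Pcx* (0.939) and *Aldh6a1* (0.916). *Fads1* was most like *Zbed3* (0.954), *Pald1* (0.945) and *Pls3* (0.944), *Elovl6* like *Gramd2* (0.795), *Lrrc59* (0.785) and *Arcn1* (0.781), and *Fads2* like *Gm13212* (0.822), *Rbck1* (0.810) and *Stmn1* (0.784). The points of these correlations share libraries and depth.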

How the data were processed

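RNA-seq of whole-thickness ileum from 18 mice was analysed, grouped by the genotype in the sample labels. The authors selected poly-A RNA, used STAR for alignment to GRCm38 (Ensembl annotation) and featureCounts for the counts, keeping reads that mapped once and to a single gene, and the deposited counts are raw. The deposited CPM values divide these counts by each library's total, the deposited FPKM values divide them by gene length as well, and the deposited moderated log2 values were not used. Counts summed to 38528522 to 50376371 per library. Genes above 3 CPM in 4 or more libraries were kept (13709), of which the 12645 protein-coding ones were compared with edgeR 4.0.16 (quasi-likelihood, TMM, 1 coefficient per genotype, no covariate) in R 4.3.3, with Benjamini-Hochberg adjustment over the genes of each comparison. Standard errors of edgeR values are the absolute log2 fold change divided by the square root of the quasi-likelihood F. The 95% intervals were built from these standard errors. Log2 CPM used a prior count of 2, and correlations 100000 permutations. On simulated data, with changes given to genes drawn at random, 89 of 100 changes of 1 on the log2 scale were found for homozygous against control over 12645 genes, with 9 false calls. That share holds for random genes and not for each of the 10. Their standard errors in this comparison ran from 0.06 (*Fads2*) to 1.04 (*Scd1*). Pandas 2.3.3 and Python 3.11.15 were used for tables. Each library is 1 mouse, and the edgeR tests set differences between genotypes against the spread between mice. Females and males numbered 3 and 3 in controls, 2 and 4 in heterozygous and 2 and 4 in homozygous mice. Litter was not in any fit. The members, lists and tests were chosen with earlier results of these data known. Genes named are all 10 members, *Ppara*, those called in a list and otherwise the 3 with its largest fold changes for homozygous against control, and the 3 tested genes most like each member. *Adipoq* was used to split libraries after its values were seen. Alternatives were DESeq2 1.42.0, other scalings and filters, all biotypes, only the 12 libraries compared, sex or replicate number in the fit, and leaving out each library. A covariate for adipocyte markers and fits within libraries under or above 1 CPM *Adipoq* were added after seeing the data. A gene that the naming rule selects is not reported here.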

Additional observations from a re-analysis of the deposited data

Results flagged for a closer look

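Of 36 sets of 6 libraries examined for a library far from the rest, 5 held one whose gap to its nearest neighbour exceeded Dixon's critical value for 6 values, and chance alone flags about 1 set in 20. Control replicate 4 was the highest control for *Fasn* (642 CPM, next 307), *Acaca* (128 CPM, next 85.9) and *Srebf1* (159 CPM, next 115), and it also had the highest summed adipocyte marker level of all libraries, 1379.7 CPM. Homozygous replicate 1 was the lowest homozygous library for *Acly* (114 CPM, next 160.2), and it was the 1 homozygous library under 1 CPM *Adipoq*. Heterozygous replicate 6 was the highest heterozygous library for *Acacb* (55.8 CPM, next 29.5), and it was also the highest of all 18 for *Me1*, *Scd1*, *Fasn*, *Acaca* and *Acly*. Without heterozygous replicate 6 the log2 fold change of *Acacb* for heterozygous against control was 1.02 and the call held, with adjusted p up to 0.0440 by edgeR over the fits that leave out 1 library.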

How the results depend on the processing

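Under 9 planned settings (DESeq2, DESeq2 size factors, scaling by library size, no filter, at least 10 counts in every library, all biotypes, only the 12 libraries compared, sex as a covariate, the replicate block) 287 of 297 log2 fold changes of the 10 genes and *Acacb* kept their direction and side of the threshold, and no member was called under any of them. The direction turned, always for values not called, with scaling by library size (*Fasn* -0.00367 for homozygous against control), with all biotypes (*Acly* 0.00516 for heterozygous against control), with sex as a covariate (*Fasn* -0.0806, *Scd1* -0.24 for homozygous against control and *Scd1* -0.48 for heterozygous against control), with the replicate block (*Scd1* -0.32 for heterozygous against control and *Fasn* 0.00756, *Me1* 0.0141 for homozygous against heterozygous). Among settings added after seeing the data, 1 member, *Me1*, was called for heterozygous against control with the adipocyte covariate, and the direction turned for *Fasn* -0.42, *Scd1* -0.36, *Fads1* -0.0360, *Srebf1* -0.0380 for homozygous against control and *Scd1* -0.57, *Srebf1* -0.0204 for homozygous against heterozygous. Within the 8 libraries under 1 CPM *Adipoq*, of which 1 is homozygous, so that the homozygous values rest on 1 sample assumed to vary like the others, it turned for *Fasn* -0.69, *Scd1* -0.0882, *Scd2* -0.85, *Fads1* -0.0101, *Srebf1* -0.0560 for homozygous against control, *Fasn* -0.27, *Acaca* -0.0441, *Scd1* -0.0576 for heterozygous against control and *Scd1* -0.0306, *Scd2* -0.50, *Elovl6* -0.0668, *Me1* 0.22 for homozygous against heterozygous. Within the 10 libraries above it, it turned for *Fasn* -0.22, *Acly* 0.0144, *Scd1* -0.19, *Elovl6* 0.15, *Fads1* -0.0635, *Srebf1* -0.0113 for homozygous against control, *Acly* 0.30, *Scd2* 0.00958, *Elovl6* 0.19, *Srebf1* 0.0868 for heterozygous against control and *Scd1* -1.12, *Elovl6* -0.0401, *Srebf1* -0.0980, *Acacb* -0.11 for homozygous against heterozygous. The cause of these turns was not tested. Leaving out 1 library at a time turned the direction in 50 of 594 fits, and the log2 fold changes of the results concerned ran as follows, *Acaca* -0.14 to 0.0724, *Acly* -0.12 to 0.00613, *Elovl6* -0.0711 to 0.0623, *Fads1* -0.0442 to 0.0893, *Fasn* -0.16 to 0.33, *Scd1* -0.21 to 1.21, *Scd2* -0.0382 to 0.17, *Srebf1* -0.0257 to 0.10 for homozygous against control, *Acaca* -0.0944 to 0.21, *Acly* -0.12 to 0.0505, *Fasn* -0.36 to 0.53, *Scd1* -0.58 to 1.11, *Srebf1* -0.0753 to 0.0541 for heterozygous against control, *Acaca* -0.22 to 0.0361, *Acly* -0.12 to 0.0400, *Fasn* -0.37 to 0.37, *Me1* -0.27 to 0.30, *Scd1* -0.55 to 1.03 for homozygous against heterozygous. The genes called in the pathway lists fell from 1 to 0 for heterozygous against control with only the 12 libraries, with the replicate block, and within the 8 or the 10 libraries, and from 1 to 0 for homozygous against control within the 8, where fewer samples were fitted. The gene was *Acacb*, with log2 fold changes of 1.28, 1.24, 1.33 and 1.45 for heterozygous and 1.64 for homozygous against control in these fits, beside 1.28 and 1.56 over the 18 libraries. Over all genes edgeR called 52, 37 and 1 genes for homozygous and heterozygous against control and homozygous against heterozygous, DESeq2 136, 80 and 10, the fit of 12 libraries 57, 23 and 0, the replicate block 49, 22 and 0, the adipocyte covariate 59, 47 and 0, the 8 libraries 4, 4 and 0 and the 10 libraries 33, 17 and 0. With the replicate block *Me1* had a log2 fold change of 1.02 for homozygous and 1.00 for heterozygous against control, not called. Deviations from the genotype means over all genes tested were correlated between libraries that share a replicate number. The r ran from -0.61 to 0.64, was over 0.1 in 9 of 18 pairs, and was highest with the own number in 3 of 18. This gave no sign that the numbers pair the mice, but such a check can miss pairing by litter or batch, which was not tested. The relation of *Srebf1* with *Fads2* turned from 0.0148 to -0.18 with TMM-normalized log2 CPM, and the other relations kept their sign under it and with deviations from the genotype mean. Each of the 10 genes had 8.62 CPM or more in every library, and whether depth limited the calls was not tested.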
